A study of Mus musculus with 16 samples.

Results

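The genes described here are 6 transcription factor genes of the endothelium: Sox7, Sox17 and Sox18, which form the SoxF group, the Krüppel-like factor genes Klf2 and Klf4, and Mef2c. They were chosen by name, with earlier results of these data known. All 6 were found among the 52636 genes of the deposited count table. All 6 were also among the 19646 genes that passed the filter on low counts and were tested. The libraries held poly(A) RNA of mouse endothelial cells sorted from liver, lung and heart at day 10 after tamoxifen induction. The KO-labelled groups carried an Erg and Fli1 double knockout, with 3 libraries from liver, 3 from lung and 2 from heart. The control groups were labelled wild type, with 3, 3 and 2 libraries. Every animal had received tamoxifen. The sources used here do not give the Cre driver that limits the deletion to a cell type, the deleted exons or the animals' age. Cells had been labelled in the living animal by an injected VE-cadherin antibody, and live CD45-negative cells carrying CD31 and VE-cadherin had been collected. Nothing in the labels says that libraries of a group came from separate animals, so p-values measure the spread between these libraries, which may be technical.

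SoxF proteins bind DNA through an HMG box and act in arterial and lymphatic identity, Notch signalling and vessel integrity, with overlapping roles among the 3 genes. KLF2 and KLF4 are zinc finger factors that laminar flow induces in endothelium through the MEKK3, MEK5 and ERK5 kinases and MEF2 factors, and that the cerebral cavernous malformation (CCM) proteins hold down. They raise anticoagulant and vasodilator genes and lower inflammatory ones, while MEF2C is a MADS-box factor held inactive by class IIa histone deacetylases.

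Libraries held between 30226340 and 41449054 counts in all. Levels are given in CPM, counts scaled to the TMM-adjusted library size in the usual way. Where genes are compared with each other, levels are in CPM per kilobase (kb) of exon. Exon length is that of all annotated exons of a gene merged, not of 1 transcript, and orders per kb depend on it. Counting error is small at these levels, so the spread between libraries sets the precision. Changes are log2 differences of KO-labelled against control libraries by edgeR's quasi-likelihood test. "Rose" and "fell" are used for a Benjamini-Hochberg adjusted p under 0.05 over all genes tested. Ranges of groups that do not overlap are named as description only. With 2 or 3 libraries per group, ranges can lie apart without a difference. The share of all genes with such ranges was not counted. The targeted genes were read first, as whole-gene counts that include reads outside the deleted part. Erg averaged 144 ± 18.6 CPM in KO-labelled and 356 ± 17.5 CPM in control liver (SD, n = 3 each; log2 −1.31, edgeR adjusted p = 1.54e-05). In lung Erg averaged 185 ± 34.3 CPM in KO-labelled and 266 ± 8.97 CPM in control libraries (log2 −0.52, edgeR adjusted p = 0.0231). This lung call ended when lung KO 2, lung KO 3 or a lung control was left out (adjusted p from 0.0508 to 0.0937) and in a separate fit of lung (0.0796). The heart means of Erg were 156 ± 1.93 CPM in KO-labelled and 216 ± 17.9 CPM in control libraries (n = 2 each; log2 −0.47, edgeR adjusted p = 0.0538), a change that passed with DESeq2 (0.0310) and in 5 other alternatives. Fli1 counts fell in no tissue, with log2 changes of 0.38, 0.69 and 0.02 in liver, lung and heart, and rose in lung (edgeR adjusted p = 0.0131). The Fli1 lung call ended without lung KO 3 or lung control 3 (adjusted p = 0.0528 and 0.0533), and Fli1 passed as higher in liver with library sizes alone (0.0336) or without liver KO 2 (0.0378). The summed level of 10 pan-endothelial marker genes was 9921 to 13307 CPM in KO-labelled and 14948 to 16684 CPM in control liver. It was 9489 to 12336 CPM against 16141 to 16590.2 CPM in KO-labelled and control lung, and 7878 to 8879 CPM against 13612 to 13825 CPM in KO-labelled and control heart. In bulk samples fewer cells of a type and less RNA per cell cannot be told apart.

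The sequences around the starts of Klf2 and Klf4 are shown because both genes sit downstream of MEF2 factors. Both also passed as lower in the mean of the 3 tissue effects, though Klf2 fell only in heart and Klf4 in no single tissue. RefSeq promoter entries for GRCm38.p6, from 250 bases before to 50 bases after the start, matched 3 of the 6 genes: Klf2, Klf4 and Mef2c. In the lines that follow, capitals mark GGAA, the core that ETS factors bind, or TTCC where it lies on the other strand, and in Klf2 also a match to the MEF2 consensus.
Klf2 (chr8:72318812-72319111, plus strand): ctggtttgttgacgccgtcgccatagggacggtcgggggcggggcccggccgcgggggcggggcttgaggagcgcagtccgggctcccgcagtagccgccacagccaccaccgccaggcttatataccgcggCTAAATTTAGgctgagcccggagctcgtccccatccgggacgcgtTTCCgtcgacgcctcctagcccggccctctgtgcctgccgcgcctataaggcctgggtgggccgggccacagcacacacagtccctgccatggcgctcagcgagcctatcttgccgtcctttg
Klf4 (chr4:55532426-55532725, minus strand): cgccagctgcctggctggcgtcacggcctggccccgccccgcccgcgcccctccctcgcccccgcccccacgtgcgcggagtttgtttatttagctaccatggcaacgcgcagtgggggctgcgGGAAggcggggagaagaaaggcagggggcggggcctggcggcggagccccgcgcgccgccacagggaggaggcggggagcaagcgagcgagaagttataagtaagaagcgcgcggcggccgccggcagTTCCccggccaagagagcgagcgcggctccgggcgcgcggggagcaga

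The Klf2 window held 1 MEF2 consensus match, CTAAATTTAG, at bases −118 to −109 from the start, which reads as a match on both strands. Of 32851 windows of the same length, 3.19% held such a match. The Klf2 window also had 1 GGAA core, at −73 to −70 on the other strand, and 1 CACCC, the core of KLF sites, at −19 to −15 on the other strand. The Klf4 window had 2 GGAA cores, at −126 to −123 and, on the other strand, at 3 to 6, and no match to the MEF2 consensus or CACCC. Mef2c had entries for 3 starts, which held 9, 3 and 3 GGAA cores and no MEF2 consensus match. None of these 5 windows held CCGGAA, a longer ETS motif found in 14.9% of all windows. GGAA on either strand was present in 96% of windows and CACCC in 57.5%. These matches describe letters in the windows and are no record of binding.

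In the mean of the 3 tissue effects, 5 of the 6 genes were lower in KO-labelled cells and Sox17 did not pass. In that mean, 14.1% of all genes tested fell, 15.2% rose, and the median change of all genes was 0.02. The mean log2 change was −1.40 for Sox18 (SE 0.155, edgeR adjusted p = 1.79e-05). Mef2c averaged −0.71 (SE 0.0946, edgeR adjusted p = 8.46e-05) and Sox7 −0.67 (SE 0.108, edgeR adjusted p = 0.000372). The Klf4 mean was −0.94 (SE 0.252, edgeR adjusted p = 0.0124). Klf2 averaged −0.63 (SE 0.189, edgeR adjusted p = 0.0226), a call that ended without liver control 1, heart KO 1 or heart control 2 (adjusted p = 0.0505, 0.0867 and 0.0647). Sox17 averaged −0.12 (SE 0.104, 95% interval −0.35 to 0.10, edgeR adjusted p = 0.424). By tissue, 2 of the 6 fell in liver, where 9.87% of all genes tested fell and 9.54% rose. In lung 2 of the 6 fell, where 4.11% of all genes fell and 4.35% rose. In heart 4 of the 6 fell, where 9.09% of all genes fell and 10.2% rose. The balance of these calls moved with the scaling. Of the genes called, 49.2% were higher in liver, 52.9% in heart and 51.9% in the mean of tissues, and with library sizes alone these shares were 63.8%, 64.2% and 64.4%. The members called in each tissue were 2, 2 and 4 under that scaling too. No gene of the 6 rose in any tissue. The median log2 change of the 6 was −0.66, −0.69 and −1.12 in liver, lung and heart, beside 0.02, −0.02 and 0.01 for all genes tested. The 6 were chosen with earlier results of these data known, so these counts and medians only describe them.

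**Figure D1:**
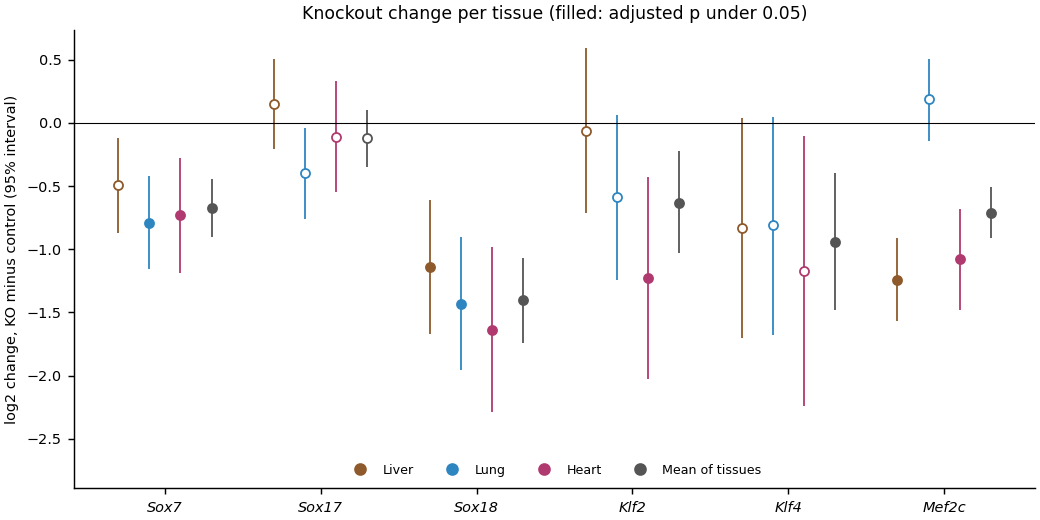
Points show the log2 change of KO-labelled against control libraries for each gene in each tissue and in the mean of tissues, with bars for the 95% interval and filled points for an adjusted p under 0.05. Sox18 lies between −1.14 and −1.64 in every tissue, whereas Mef2c lies at −1.24 in liver, −1.08 in heart and 0.19 in lung.

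Sox18 (ENSMUSG00000046470, GRCm38 chromosome 2, 181669836 to 181671640, minus strand), whose loss in humans and mice disturbs hair and lymphatic vessels, fell in every tissue. KO-labelled liver had 294, 215 and 201 CPM, against 594, 452 and 521 CPM in control liver. In lung the KO-labelled libraries had 157, 119 and 152 CPM and the controls 275, 384 and 495 CPM. Heart had 97.5 and 166 CPM in KO-labelled and 351 and 470.0 CPM in control libraries. Every KO-labelled library lay below every control library of its tissue. The log2 change was −1.14 in liver (SE 0.246, edgeR adjusted p = 0.00484), and −1.43 in lung (SE 0.248, adjusted p = 0.00284). In heart it was −1.64 (SE 0.305, edgeR adjusted p = 0.00243). These calls held in all 23 alternatives of each tissue, with adjusted p up to 0.0218, 0.0166 and 0.0376 in liver, lung and heart. The tissue differences of this change were −0.29, −0.49 and −0.21 for lung minus liver, heart minus liver and heart minus lung, and none passed (edgeR adjusted p = 0.721, 0.478 and 0.820). Their 95% intervals, −1.02 to 0.45, −1.32 to 0.33 and −1.03 to 0.62, leave room for differences of more than 1 log2 unit.

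Sox7 (ENSMUSG00000063060, chromosome 14, 63943673 to 63950732, plus strand), which acts with the other SoxF genes in vessel growth, fell in lung and heart. In KO-labelled lung Sox7 had 132, 124 and 148 CPM, against 207, 203 and 288 CPM in control lung (log2 −0.79, SE 0.173, edgeR adjusted p = 0.0121). KO-labelled heart had 124 and 118 CPM and control heart 171 and 231 CPM (log2 −0.73, SE 0.211, edgeR adjusted p = 0.0265). Liver libraries had 111, 88.5 and 109 CPM when KO-labelled and 177, 125 and 133 CPM as controls (log2 −0.49, SE 0.172, edgeR adjusted p = 0.0597). The groups did not overlap in any of the 3 tissues, though liver missed the threshold. The lung call ended without lung control 3, the highest library (log2 −0.60, adjusted p = 0.0631). The heart call ended without heart KO 1 (adjusted p = 0.116), heart KO 2 (0.108) or heart control 2 (0.224). The liver change passed with DESeq2 (adjusted p = 0.0352), without the filter on low counts (0.0437) and without lung control 3 (0.0457).

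Sox17 (ENSMUSG00000025902, chromosome 1, 4490931 to 4497354, minus strand), a factor of arterial identity, passed the test in no tissue. Liver had 222, 237 and 278 CPM in KO-labelled and 227, 216 and 222 CPM in control libraries (log2 0.15, 95% interval −0.21 to 0.51, edgeR adjusted p = 0.580). In lung the KO-labelled libraries had 355, 455 and 334 CPM and the controls 599, 395 and 519 CPM (log2 −0.40, interval −0.76 to −0.04, edgeR adjusted p = 0.169). Heart had 378 and 399 CPM in KO-labelled and 361 and 478 CPM in control libraries (log2 −0.11, interval −0.55 to 0.33, edgeR adjusted p = 0.754). The groups overlapped in all 3 tissues. In heart the sign turned without heart control 2 (log2 0.10). The exons of Sox17 share 804 bases with Gm37587 on the opposite strand, which had 0.0614 to 1.65 CPM, and the sources used here do not say if strand was used in counting.

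Taken per kb of exon, the 3 SoxF genes together had 229 ± 28.7 CPM per kb in KO-labelled and 413 ± 53.3 CPM per kb in control liver (SD, n = 3 each). In lung the sum was 209 ± 2.59 CPM per kb in KO-labelled and 414 ± 76.9 CPM per kb in control libraries (n = 3 each). In heart it was 199 ± 32.0 CPM per kb in KO-labelled and 402 ± 82.0 CPM per kb in control libraries (n = 2 each). Sums of KO-labelled and control libraries did not overlap in any tissue. Sox18 made up 57.6% to 69.4% of the SoxF sum in KO-labelled and 77.1% to 78.8% in control liver. Its share was 35.5% to 45.9% in KO-labelled and 47.4% to 62.1% in control lung, and 34.0% to 46.3% in KO-labelled and 62.9% to 63.0% in control heart. Sox17 made up 17.8% to 27.0% in KO-labelled and 10.2% to 12.5% in control liver, and 37.6% to 44.8% in KO-labelled and 21.8% to 22.0% in control heart. In lung the Sox17 ranges overlapped slightly, at 33.5% to 46.2% in KO-labelled and 21.7% to 35.1% in control libraries. Sox17 was the most abundant SoxF transcript per kb in KO-labelled lung 2 and KO-labelled heart 1, and Sox18 in the other 14 libraries.

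**Figure D2:**
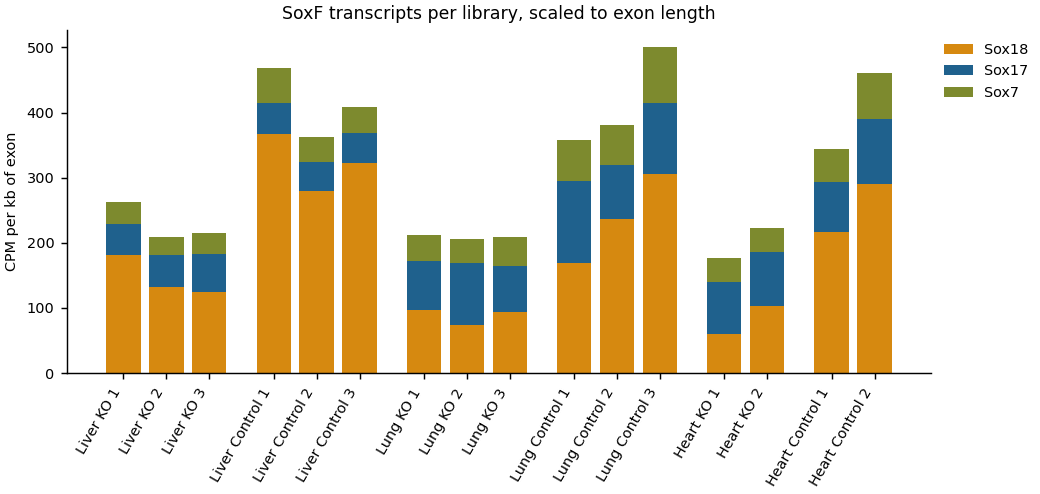
Stacked bars give the CPM per kb of exon of Sox18, Sox17 and Sox7 in each of the 16 libraries, KO-labelled left of control in each tissue. The sum is 177 to 262 in KO-labelled and 344 to 501 in control libraries, and the Sox18 segment differs most.

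Mef2c (ENSMUSG00000005583, chromosome 13, 83504034 to 83667080, plus strand) fell in liver and heart and not in lung. KO-labelled liver had 89.9, 71.8 and 83.3 CPM, against 225, 190.4 and 162 CPM in control liver. In lung the KO-labelled libraries had 84.3, 69.1 and 61.8 CPM and the controls 69.6, 63.3 and 56.3 CPM. Heart had 80.7 and 94.7 CPM in KO-labelled and 203 and 167 CPM in control libraries. Liver and heart groups lay well apart, and the lung groups overlapped. The log2 change was −1.24 in liver (SE 0.153, edgeR adjusted p = 8.12e-05), −1.08 in heart (SE 0.187, adjusted p = 0.00149) and 0.19 in lung (SE 0.151, adjusted p = 0.518).

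Mef2c was also the gene of the 6 whose knockout effect differed between tissues by the test of the difference itself. The lung effect exceeded the liver effect by 1.42 (SE 0.215, edgeR adjusted p = 0.00154), a comparison in which 3.13% of all genes tested passed in that direction. The heart effect was 1.26 lower than the lung effect (log2 −1.26, SE 0.240, edgeR adjusted p = 0.00818), where 2.57% of genes passed in that direction; without heart KO 1 it missed the threshold (log2 −1.13, adjusted p = 0.0544). Heart and liver effects differed by 0.16 (95% interval −0.35 to 0.67, edgeR adjusted p = 0.742). In that comparison 8.32% of all genes passed and none of the 6. The order of Mef2c levels ran from control liver (193 ± 31.6 CPM, n = 3) and control heart (185 ± 24.8 CPM, n = 2), which overlapped, to the other 4 groups. Those were KO-labelled heart at 87.7 ± 9.87 CPM (n = 2), KO-labelled liver at 81.7 ± 9.13 CPM, KO-labelled lung at 71.7 ± 11.5 CPM and control lung at 63.1 ± 6.66 CPM (n = 3 each). Each of these overlapped with the next. KO-labelled liver (71.8 to 89.9 CPM) and heart (80.7 to 94.7 CPM) nevertheless lay wholly above control lung (56.3 to 69.6 CPM). Markers of other cells known to express Mef2c were summed beside this result. The 5 B cell markers summed to 0.957 to 5.16 CPM in KO-labelled and 6.80 to 12.4 CPM in control liver, and to 3.63 to 4.31 CPM in KO-labelled and 1.68 to 2.49 CPM in control heart. The 8 cardiomyocyte markers summed to 130.3 to 154 CPM in KO-labelled and 152 to 238 CPM in control heart, and 3 of them fell there. In lung the same 8 summed to 21.7 to 161 CPM in KO-labelled and 10.1 to 16.1 CPM in control libraries, and 1 of them, Tnnt2, rose (log2 6.20). The 8 smooth muscle and pericyte markers summed to 581 to 775 CPM in KO-labelled and 898 to 961 CPM in control heart, and to 132 to 271 CPM in KO-labelled and 89.5 to 99.2 CPM in control lung, where Rgs5 rose (log2 2.87). The 7 macrophage and monocyte markers summed to 168 to 284 CPM in KO-labelled and 23.9 to 50.8 CPM in control heart, where 4 rose. In lung they summed to 76.8 to 215 CPM in KO-labelled and 485 to 569 CPM in control libraries, where Lyz2 fell (log2 −2.24). Clec4f and Marco were at 0 in control heart and Clec4f in control lung. B cell markers in lung summed to 2.06 to 3.19 CPM in KO-labelled and 3.51 to 6.10 CPM in control libraries. None of the 5 B cell markers passed in any tissue, and none of the 8 smooth muscle and pericyte markers passed in liver or heart. In KO-labelled and control liver the cardiomyocyte sums were 2.48 to 6.61 and 2.10 to 2.72 CPM. The smooth muscle sums there were 20.1 to 152 and 28.8 to 60.9 CPM, and the macrophage sums 147 to 301 and 159 to 539 CPM. Myh6, Actc1 and Myl2 were at 0 in KO-labelled liver and Myl2 in control liver. None of the B cell, cardiomyocyte or smooth muscle markers was at 0 in heart or lung. The 7 lung epithelium markers summed to 97.0 to 157 CPM in KO-labelled and 7.81 to 9.92 CPM in control heart, where 4 rose. In lung they summed to 356 to 576 CPM in KO-labelled and 1999 to 3209.6 CPM in control libraries, where 4 fell. In liver 2 of them fell. The part of all these markers in the Mef2c result was not tested.

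**Figure D3:**
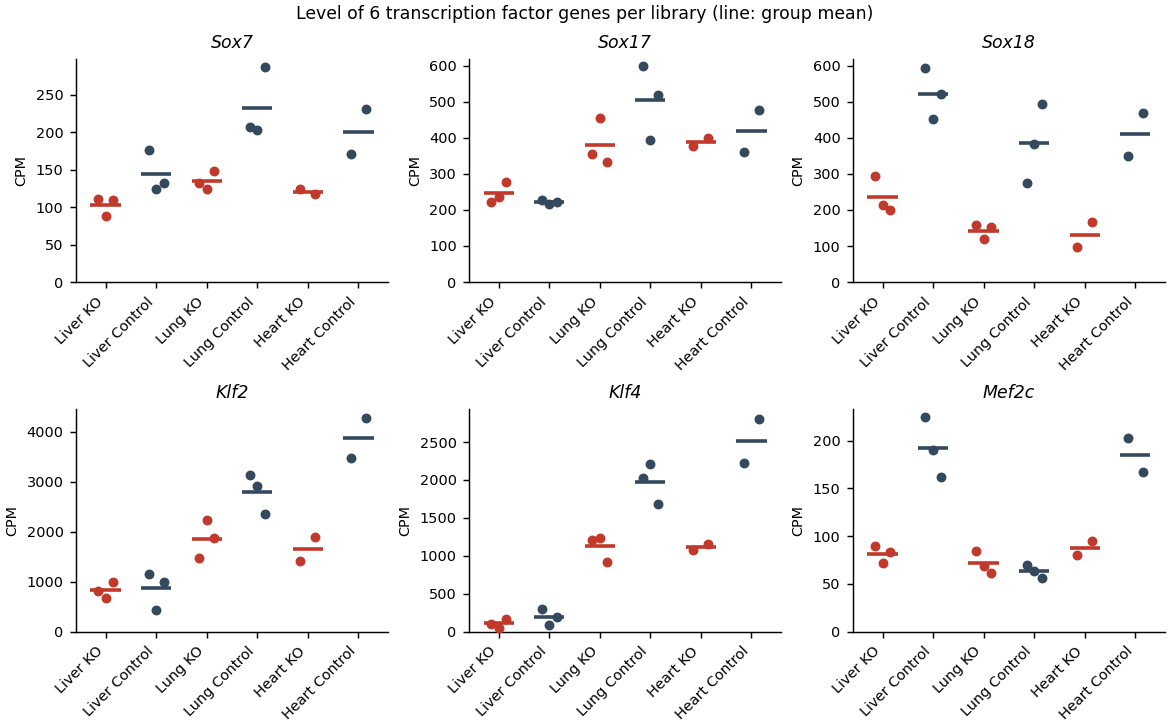
Each panel shows the CPM of 1 gene in the 16 libraries, with a line at the group mean and KO-labelled groups (red) left of their controls (dark). For Sox18 every KO-labelled library lies under every control of its tissue, and for Mef2c the 3 control lung libraries lie at 56.3 to 69.6 CPM, beside 162 to 225 CPM in control liver and heart.

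Klf2 (ENSMUSG00000055148, chromosome 8, 72319033 to 72321656, plus strand) fell in heart. Heart had 1417 and 1883 CPM in KO-labelled and 3473 and 4267 CPM in control libraries (log2 −1.23, SE 0.374, edgeR adjusted p = 0.0345). In lung the KO-labelled libraries had 1481, 2235 and 1865 CPM and the controls 3126, 2918 and 2349.6 CPM (log2 −0.59, 95% interval −1.24 to 0.06, edgeR adjusted p = 0.272). KO-labelled liver had 818, 680.0 and 990.2 CPM, against 1162, 433 and 1001 CPM in control liver (log2 −0.06, interval −0.71 to 0.59, edgeR adjusted p = 0.926). Heart and lung groups did not overlap, and the liver controls spanned the whole KO-labelled range. The heart call ended when any 1 of the 4 heart libraries was left out, with adjusted p between 0.0675 and 0.215. Heart minus liver, the tissue difference with the smallest p, had log2 −1.17 and did not pass (SE 0.478, edgeR adjusted p = 0.154). In liver the sign of the Klf2 change turned with library sizes alone (log2 0.06).

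Klf4 (ENSMUSG00000003032, chromosome 4, 55527143 to 55532466, minus strand) passed in no single tissue, although its mean over tissues did. In lung Klf4 had 1209, 1239.9 and 922 CPM in KO-labelled and 2030.2, 2206 and 1681 CPM in control libraries (log2 −0.81, SE 0.403, edgeR adjusted p = 0.255). Heart had 1076 and 1153 CPM in KO-labelled and 2218 and 2802 CPM in control libraries (log2 −1.17, SE 0.497, edgeR adjusted p = 0.118). KO-labelled liver had 103, 49.4 and 171 CPM, against 295, 92.2 and 188 CPM in control liver (log2 −0.83, SE 0.404, edgeR adjusted p = 0.174). Lung and heart groups did not overlap, and liver groups did, with more than 3-fold between the lowest and highest library of each liver group. The lung and heart changes passed when each tissue was fitted on its own (adjusted p = 0.0304 and 0.00894), and the liver change passed without liver KO 3 (log2 −1.33, adjusted p = 0.0381). The tissue differences of the Klf4 change were 0.02, −0.34 and −0.36 for lung minus liver, heart minus liver and heart minus lung, and none passed (edgeR adjusted p of at least 0.806).

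Both Klf genes are also induced when tissue is taken apart, and 28 immediate early and dissociation genes such as Fos and Egr1 were therefore summed beside them. KO-labelled liver libraries 1, 2 and 3 had summed levels of 12363, 4266 and 26982 CPM, and liver controls had 11097, 3940.2 and 9498 CPM. Lung had 23864, 12147 and 23996 CPM in KO-labelled and 23826, 22059 and 19389 CPM in control libraries. Heart had 27705 and 26539 CPM in KO-labelled and 32104 and 42299 CPM in control libraries. Within liver both groups had their lowest Klf2, Klf4 and summed level in library 2, and KO-labelled liver 3 had the highest sum of liver. In heart the sum was lower in both KO-labelled libraries, as were Klf2 and Klf4, and in lung the ranges of the sum overlapped while those of Klf2 and Klf4 did not. Of the 28 genes, 7 rose and 1 fell in liver, none passed in lung and 1 rose in heart, by edgeR's test. Of all genes tested, 9.54% rose and 9.87% fell in liver, and 10.2% rose in heart. The 7 rises in liver became 14 without liver KO 2 and 4 without liver control 2. The liver fall ended with library sizes alone, upper-quartile factors or a separate fit of liver. It also ended without liver KO 1 or 2, liver control 1 or 3, any heart library, or a lung library other than control 1. The heart rise ended without heart KO 1, either heart control, liver control 3, liver KO 1, lung KO 1 or a lung control. The part of these genes in the Klf2 and Klf4 results was not tested. The ratio of Klf2 to Klf4, each in CPM per kb of exon, was 9.56 to 22.7 in KO-labelled and 6.50 to 8.78 in control liver. In lung it was 2.02 to 3.34 in KO-labelled and 2.18 to 2.54 in control libraries, and in heart it was 2.43 ± 0.369 in KO-labelled and 2.55 ± 0.0501 in control libraries (n = 2 each).

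**Figure D4:**
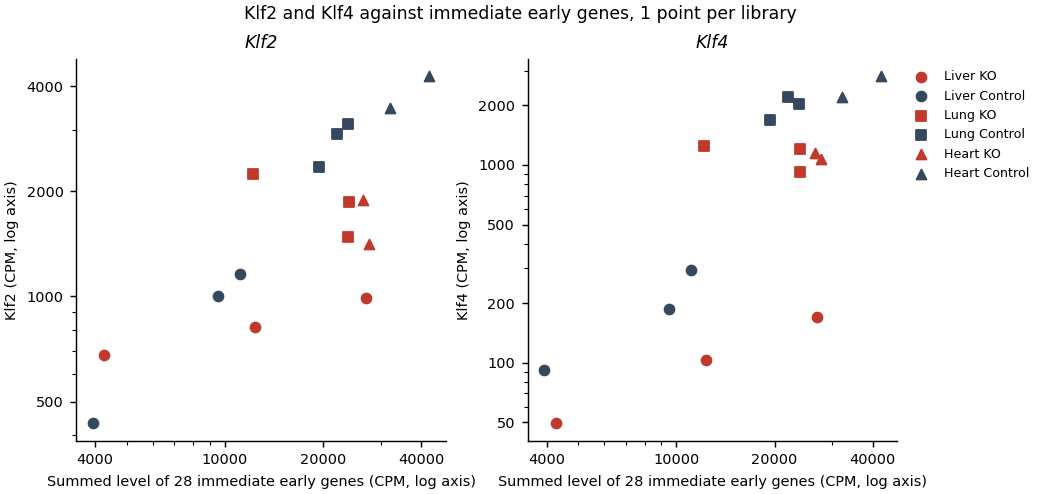
Each point is 1 library, with the summed CPM of 28 immediate early genes on a log x axis and the CPM of Klf2 or Klf4 on a log y axis. In lung the sums overlap while Klf4 is at 922 to 1239.9 CPM in KO-labelled and 1681 to 2206 CPM in control libraries, and in heart the groups differ on both axes.

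Control cells were compared across organs to place these levels. Between control lung and control liver, 4 of the 6 genes were higher in lung and 1 was lower, where 24.6% of all genes tested were higher in lung and 22.4% lower. Klf4 averaged 1972 ± 267 CPM in control lung and 192 ± 102 CPM in control liver (SD, n = 3 each; log2 3.36, edgeR adjusted p = 2.63e-05). The log2 difference of lung minus liver was 1.69 for Klf2, 1.19 for Sox17 and 0.68 for Sox7 (edgeR adjusted p = 0.000467, 5.84e-05 and 0.00497). For Mef2c it was −1.61 (edgeR adjusted p = 1.53e-06), and Sox18 did not pass (log2 −0.44, adjusted p = 0.154). In control heart against control liver, 3 of the 6 were higher, as were 23.8% of all genes tested. These were Klf4 (log2 3.71), Klf2 (log2 2.16) and Sox17 (log2 0.92), with edgeR adjusted p of 2.34e-05, 0.000144 and 0.00104. Sox7 missed the threshold there (log2 0.47, edgeR adjusted p = 0.0550) and passed in 8 of 23 alternatives. Between control heart and control lung only Mef2c of the 6 passed, higher in heart by 1.55 on the log2 scale (edgeR adjusted p = 1.15e-05), as were 13.5% of all genes tested. In control liver the 28 immediate early and dissociation genes summed to 3940.2 to 11097 CPM. Their sums were 19389 to 23826 CPM in control lung and 32104 to 42299 CPM in control heart. These sums ran in the same order as the Klf2 and Klf4 means, and their part in the organ differences was not tested. Each organ's control libraries also serve in its knockout comparison, so these differences and the knockout changes share samples.

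By level per kb, Klf2 was among the highest of the 52489 genes with an exon length in every group, at ranks 11 to 48 in KO-labelled and 5 to 58 in control groups. Klf2 stood at 893 ± 179 CPM per kb in KO-labelled and 2095 ± 304 CPM per kb in control heart (n = 2 each), and at 449 ± 84.1 and 468 ± 207 CPM per kb in KO-labelled and control liver (n = 3 each). The merged exons of Mef2c span 15715 bases. Mef2c stood at 3.93 to 6.02 CPM per kb in KO-labelled and 3.58 to 14.3 CPM per kb in control libraries. In KO-labelled heart the order per kb was Klf2, Klf4 (366 ± 18.0), Sox18 (81.5 ± 30.1), Sox17 (81.4 ± 3.05), Sox7 (36.6 ± 1.15) and Mef2c (5.58 ± 0.628). Sox18 and Sox17 did not differ there beyond their spread. In control heart the order was the same, with Klf4 at 823 ± 135, Sox18 at 253 ± 51.9, Sox17 at 87.9 ± 17.4, Sox7 at 61.0 ± 12.8 and Mef2c at 11.8 ± 1.58 CPM per kb (n = 2 each).

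Among the 6, the levels of Klf2 and Klf4 ran most closely together over the 16 libraries (Pearson r = 0.94, on log2 CPM), followed by Sox17 with Klf4 (r = 0.88) and Sox17 with Klf2 (r = 0.85). Sox18 with Mef2c had r = 0.56 and Sox18 with Klf4 −0.12. These values describe 16 libraries that share 3 tissues and 2 genotype labels. Outside the 6, the gene most like Sox18 among 10390 candidates was Ddx6 (r = 0.951), followed by the endothelial adhesion receptor gene Adgrl4 (r = 0.942). Adgrl4 averaged 496, 464 and 354 CPM in KO-labelled and 1216, 867 and 839.6 CPM in control liver, lung and heart. The gene most like Mef2c was Stox2 (r = 0.940), and Tmem88, an inhibitor of Wnt signalling, had r = 0.921. Tmem88 averaged 77.8, 29.8 and 86.9 CPM in KO-labelled and 249, 53.7 and 229.6 CPM in control liver, lung and heart. Klf4 was closest to Stmn2 (r = 0.975), Klf2 to Mmp15 (r = 0.949), Sox17 to Dmtn (r = 0.940) and Sox7 to Cyyr1 (r = 0.920).

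Relatives of the 6 genes were counted next. Of all genes tested, 9.54% rose and 9.87% fell in liver, 4.35% and 4.11% in lung, and 10.2% and 9.09% in heart. These shares stand beside each list below, and the lists were chosen with earlier results of these data known. Of 7 other SOX genes, 4 rose in liver, 2 in lung and none in heart, and none fell. Sox4 averaged 72.5 ± 29.6 CPM in KO-labelled and 37.0 ± 2.25 CPM in control liver (n = 3 each; log2 0.97, edgeR adjusted p = 0.00962). Sox5 had 14.6 ± 9.12 CPM in KO-labelled and 0.937 ± 0.511 CPM in control liver (log2 3.95, edgeR adjusted p = 0.000202). Sox9 rose in lung, at 6.12 ± 1.28 CPM in KO-labelled and 1.12 ± 0.0830 CPM in control libraries (log2 2.44, edgeR adjusted p = 0.00182). The median log2 change of the 7 was 0.82, 0.27 and 0.28 in liver, lung and heart. In lung 1 rose without lung control 1 or 2. Among 11 other KLF genes 3 rose and 1 fell in liver and none passed in lung or heart by edgeR's test. The 3 rises became 1 without liver KO 1, liver control 2 or liver control 3. Klf10, a gene induced by TGF-beta, fell in liver to 23.9 ± 5.06 CPM in KO-labelled libraries, against 90.1 ± 6.39 CPM in controls (log2 −1.91, edgeR adjusted p = 5.24e-05). Klf15, a regulator of metabolism, rose there, at 41.9 ± 6.01 CPM in KO-labelled and 8.68 ± 3.85 CPM in control libraries (log2 2.27, edgeR adjusted p = 0.00242). Mef2a passed in no tissue. Mef2d rose in lung, where it averaged 253 ± 30.5 CPM in KO-labelled and 149.7 ± 8.26 CPM in control libraries (log2 0.76, edgeR adjusted p = 0.00252). In liver it had log2 0.40 and in heart −0.52 (edgeR adjusted p = 0.0429 and 0.0351). The liver call ended in 7 alternatives and the heart call in 5, without heart KO 2 or heart control 1 among them (adjusted p = 0.215 and 0.235). The third listed relative, Mef2b, did not pass the filter on low counts.

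Upstream of Klf2 and Klf4, 17 genes of the flow and CCM pathways were listed, of which 2 rose and 3 fell in liver, 1 fell in lung and 3 fell in heart. Of all genes tested, 9.54% rose and 9.87% fell in liver, 4.11% fell in lung and 9.09% fell in heart. The liver counts of the list were the same whichever 1 library was left out. The heart genes were Kdr, Plxnd1 (log2 −0.84) and Map3k2 (log2 −0.54). The count became 1 without heart KO 1, heart KO 2 or heart control 1 and with library sizes alone, as Plxnd1 and Map3k2 missed the threshold (adjusted p from 0.0525 to 0.265), and it was 5 with DESeq2. Heg1, the membrane anchor of the CCM complex, rose in liver to 813 ± 151 CPM in KO-labelled libraries, against 352 ± 13.3 CPM in controls (log2 1.21, edgeR adjusted p = 0.000155). S1pr1, a receptor for sphingosine 1-phosphate, rose there as well, at 470.1 ± 27.6 CPM in KO-labelled and 186 ± 10.2 CPM in control libraries (log2 1.34, edgeR adjusted p = 0.000316). Map3k3, which encodes MEKK3, fell in liver, with 177 ± 19.4 CPM in KO-labelled and 258 ± 18.6 CPM in control libraries (log2 −0.54, edgeR adjusted p = 0.00409). It was also the gene that fell in lung (log2 −0.44, edgeR adjusted p = 0.0295), a call that ended without lung KO 2 or 3 or lung control 2 or 3 (adjusted p = 0.103, 0.0679, 0.0893 and 0.0962), without the filter on low counts (0.0865) and in a separate fit of lung (0.105). Kdr, the main VEGF receptor gene, fell in heart to 1119 ± 248 CPM in KO-labelled libraries, against 3074 ± 333 CPM in controls (n = 2 each; log2 −1.46, edgeR adjusted p = 0.00183). The ERK5 gene Mapk7 had log2 changes of −0.11, 0.05 and −0.20 in liver, lung and heart. The CCM gene Krit1 had 0.19, 0.23 and −0.04. None of these passed (edgeR adjusted p from 0.291 to 0.903). The list's median log2 change was −0.11, −0.10 and −0.33.

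Of 13 genes for repressors, cofactors and kinases that act on MEF2 proteins, none passed in liver by edgeR's test, 3 rose in lung, and 1 rose and 2 fell in heart. In lung 2 rose when lung KO 1 or a lung control was left out, as Hdac4 missed the threshold (adjusted p from 0.0586 to 0.0835). In heart the rise of Sik3 ended without heart KO 1, heart control 1 or heart control 2 (adjusted p = 0.107, 0.131 and 0.0779), and the fall of Hdac7 without heart KO 2, heart control 1 or heart control 2 (0.0722, 0.0651 and 0.0567). Hdac4, Sik3 and Hdac7 were called with log2 1.07, 0.47 and −0.62. Hdac9, a class IIa deacetylase gene, averaged 117 ± 59.3 CPM in KO-labelled and 16.3 ± 2.32 CPM in control lung (n = 3 each; log2 2.85, edgeR adjusted p = 0.000110). Hdac5, of the same class, had 293 ± 68.0 CPM in KO-labelled and 176 ± 6.36 CPM in control lung (log2 0.73, edgeR adjusted p = 0.00641). Prkd2, a kinase gene whose product acts on class IIa deacetylases, fell in heart to 95.6 ± 7.45 CPM in KO-labelled libraries, against 303 ± 47.1 CPM in controls (n = 2 each; log2 −1.66, edgeR adjusted p = 0.000578). Of 4 tested genes listed as MEF2 targets in endothelium, 2 rose and 1 fell in liver, and 1 fell in lung and in heart. The liver fall, of Dll4, ended without a liver control or liver KO 2 (edgeR adjusted p from 0.0535 to 0.117). It also ended with library sizes alone (0.0555) and in a separate fit of liver (0.0602). The liver rises became 1 when a liver library other than KO 3 was left out, and the heart fall ended without heart KO 2 or heart control 2. The nuclear receptor gene Nr4a1, which is also an immediate early gene, rose in liver (426 ± 169 CPM in KO-labelled and 73.0 ± 48.4 CPM in control libraries, log2 2.54, edgeR adjusted p = 0.00170, and log2 3.18 without liver control 1).

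Of 15 genes that KLF2 or KLF4 are known to raise, 8 fell and 3 rose in liver, 5 fell and none rose in lung, and 4 fell and 3 rose in heart. These counts moved with single libraries. In liver 5 fell without liver KO 2 or liver control 3, and 1 rose without liver control 2. In lung 3 fell without lung KO 2 or lung control 3. In heart 1 fell without heart KO 1 or heart control 2, and 1 rose whichever 1 heart library was left out. Slc9a3r2, a scaffold protein gene, fell in each tissue. It averaged 189 ± 23.6 CPM in KO-labelled and 591 ± 57.5 CPM in control liver (log2 −1.64, edgeR adjusted p = 1.2e-05). In lung it had 643 ± 45.9 CPM in KO-labelled and 1266 ± 150.4 CPM in control libraries (log2 −0.98, edgeR adjusted p = 0.00180). In heart it had 431 ± 107 CPM in KO-labelled and 1368 ± 96.3 CPM in control libraries (log2 −1.67, edgeR adjusted p = 0.000125). Other members rose. Plat, the gene of tissue plasminogen activator, averaged 82.1 ± 90.1 CPM in KO-labelled and 2.41 ± 1.41 CPM in control liver (log2 5.07, edgeR adjusted p = 0.000214). Its log2 change was 3.63 without liver KO 3 and 5.66 without liver control 1. Ptgis, prostacyclin synthase, averaged 46.8 ± 16.6 CPM in KO-labelled and 15.2 ± 4.48 CPM in control heart (log2 1.62, edgeR adjusted p = 0.00265). The list's median log2 change was −0.77, −0.60 and −0.83 in liver, lung and heart. The 15 genes overlap with other endothelial lists, and no set test was made.

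Among 7 genes that KLF2 or KLF4 are known to lower, 3 rose and 1 fell in liver, 2 rose and 1 fell in lung, and 4 rose in heart. In liver 2 rose without a liver control or liver KO 3, 4 without liver KO 2, and 1 in a separate fit of liver. The liver fall ended in that fit and without liver KO 1 or 2 or liver control 1 or 3. In heart 2 rose without heart KO 1, heart control 1 or heart control 2. Angpt2, a Tie2 antagonist, rose in lung (537 ± 344 CPM in KO-labelled and 42.7 ± 2.45 CPM in control libraries, log2 3.65, edgeR adjusted p = 6.4e-05, and log2 2.99 without lung KO 3). Ccl2, a monocyte chemokine gene, rose in heart (138 ± 68.5 CPM in KO-labelled and 4.64 ± 0.370 CPM in control libraries, log2 4.89, edgeR adjusted p = 0.00135, and log2 4.29 without heart KO 1). All 7 leukocyte markers also rose in heart, where they summed to 102 to 113 CPM in KO-labelled and 22.4 to 32.9 CPM in control libraries, and their part in these results was not tested. The endothelin gene Edn1 rose in liver and heart and fell in lung (log2 1.39, 1.50 and −1.38). The heart call for Edn1 ended without heart KO 1 (adjusted p = 0.0960), heart control 1 (0.162) or heart control 2 (0.0511). Its liver call ended in a separate fit of liver (adjusted p = 0.0526), and its lung call without lung KO 2 (adjusted p = 0.0749), lung KO 3 (0.0625) or lung control 3 (0.0916).

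Of 16 genes that SoxF factors are known to raise, 6 fell in liver, 7 in lung and 8 in heart, while none rose in liver, 2 in lung and 1 in heart. In liver 3 fell without liver KO 2, liver control 1 or liver control 3, and in heart 4 fell whichever 1 heart library was left out. No gene of the list rose in lung when 1 lung control was left out, whichever it was. The heart rise ended with upper-quartile factors and without a liver control, a lung control, liver KO 1 or lung KO 1. It also ended whichever 1 heart library was left out, which leaves 1 library in a heart group. Notch1, a Notch receptor gene, fell in liver, at 287 ± 21.3 CPM in KO-labelled and 514 ± 51.7 CPM in control liver (log2 −0.84, edgeR adjusted p = 0.0105). In heart it had 283 ± 10.7 CPM in KO-labelled and 805 ± 24.6 CPM in control libraries (n = 2 each; log2 −1.51, edgeR adjusted p = 0.00125). Robo4, an endothelial guidance receptor gene, fell in heart to 149 ± 14.3 CPM in KO-labelled libraries, against 758 ± 3.23 CPM in controls (log2 −2.34, edgeR adjusted p = 0.000366). In liver its log2 change was −1.29 (edgeR adjusted p = 0.00293). Dll4, the arterial Notch ligand gene, fell in lung to 131 ± 35.0 CPM in KO-labelled libraries, against 344 ± 55.5 CPM in controls (log2 −1.40, edgeR adjusted p = 0.00264). Acvrl1, the ALK1 receptor gene, fell in lung to 1389.9 ± 154 CPM in KO-labelled libraries, against 3055 ± 335 CPM in controls (log2 −1.14, edgeR adjusted p = 0.000253). Cdh5, the VE-cadherin gene and another listed target, passed in no tissue (log2 −0.09, −0.27 and −0.39, edgeR adjusted p = 0.786, 0.412 and 0.243). The list's median log2 change was −0.17, −0.72 and −0.46 in liver, lung and heart. Several of these genes are also general endothelial markers, whose summed level was lower in the KO-labelled group of each tissue.

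**Figure D5:**
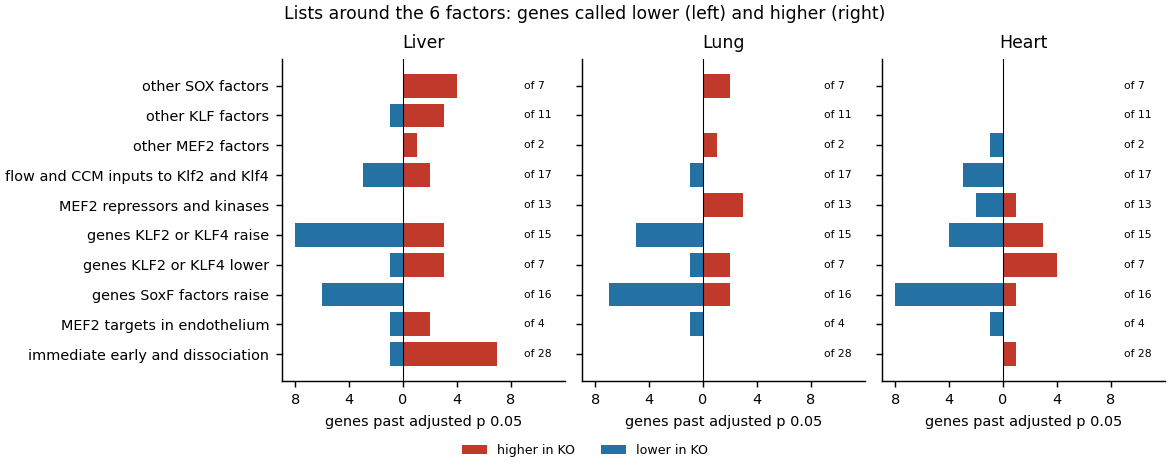
Bars count the genes of each list past an adjusted p of 0.05, lower in KO-labelled libraries to the left and higher to the right, for liver, lung and heart, with the number tested beside each bar. Genes that SoxF factors raise fell in 6, 7 and 8 of 16 cases, and the other SOX genes include 4 that rose in liver, 2 in lung and none in heart.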

How the data were processed

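The authors deposited raw read counts per gene for 16 libraries, 1 count per gene and library. FastQC 0.11.5, STAR 2.7.6a and the GRCm38 build are named in the submitters' processing notes. The sources used here do not name the program that counted reads, its use of strand or its annotation, and, per the labels' protocols, an unstranded or a stranded kit was used without saying for which library.

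Of 52636 genes, 52403 had a symbol. The members and all gene lists were chosen with earlier results of these data known. Named genes were the 6 members, Erg and Fli1, up to 3 genes per list and tissue by smallest adjusted p, lists of 7 or fewer genes in full, and the 3 genes most like each member. A gene that this rule names is not reported here, though the counts include it. Genes were filtered with filterByExpr (minimum count 10, minimum total 15). One edgeR 4.0.16 quasi-likelihood fit (R 4.3.3) held all 16 libraries as 6 group means with TMM factors of 0.916 to 1.07, with Benjamini-Hochberg adjustment of p in each comparison. CPM came from the deposited counts, and exon lengths from GENCODE vM21. The fit was tested on simulated data. Libraries of a group correlated at 0.964 to 0.986. Alternatives were DESeq2 1.42.0, other scalings, no filter, separate fits, replicate blocks and leaving out each library.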

Additional observations from a re-analysis of the deposited data

Results flagged for a closer look

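Each result here was singled out because the knockout effect differed between tissues by the test of the difference itself (edgeR's quasi-likelihood interaction test, adjusted over 19646 genes). For Mef2c the lung effect exceeded the liver effect by 1.42 (log2, adjusted p = 0.00154), and the heart effect minus the lung effect was −1.26 (adjusted p = 0.00818).

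The other results concern listed genes that changed in opposite directions in different tissues, chosen after their values were seen. For Mef2d the heart effect minus the liver effect was −0.92 (adjusted p = 0.0138), a call that ended without heart KO 2 or heart control 1 (adjusted p = 0.0594 and 0.0719), and heart minus lung was −1.28 (adjusted p = 0.00299). For Ass1, the argininosuccinate synthase gene that feeds nitric oxide synthesis, lung minus liver was −3.32 (adjusted p = 0.00245) and heart minus liver −2.93 (adjusted p = 0.00964, and 0.0569 without heart KO 1). Without liver control 3 these values were −4.06 and −3.65. For Gja4, the gap junction gene of arterial endothelium, heart minus liver was 2.16 (adjusted p = 0.0131, and 0.0802 without heart control 1). For Edn1 lung minus liver was −2.78 (adjusted p = 0.00359) and heart minus lung 2.89 (adjusted p = 0.00736, and 0.0509 without heart control 1). For Vcam1, a leukocyte adhesion receptor gene, heart minus liver was 3.12 (adjusted p = 0.0144), a call that ended without heart KO 1, heart control 1 or heart control 2 (adjusted p = 0.0573, 0.0846 and 0.0540), and without liver KO 3 it was 3.88. For Unc5b, a netrin receptor gene, heart minus lung was −1.85 (adjusted p = 0.00750) and passed in all 23 alternatives.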

How the results depend on the processing

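The knockout calls for Sox18 in 3 tissues and for Mef2c in liver and heart passed in all 23 alternatives of each. With library sizes alone the median log2 change of all genes moved by 0.11 in liver and in control lung minus control liver. Upper-quartile factors moved it by 0.11 in control lung and control heart minus control liver. With heart at 2 against 2 libraries, leaving out 1 library rests on the spread of the other groups.

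Same-numbered KO-labelled and control libraries did not deviate together in every pair: correlations were −0.051, 0.24 and 0.101 in liver, −0.0676, −0.0797 and 0.0328 in lung and 0.0465 in heart. Of 6 libraries, 3 in liver and 2 in lung correlated best with their own number. With the replicate block of the description number, 2 of the 6 genes passed in heart in place of 4 (Sox7, adjusted p = 0.0579, and Klf2, 0.0799, did not), while Sox7 passed in liver (0.0318). With the block of the title number, 4 passed in heart.

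DESeq2 called 2514 genes in lung, against 1662, and 2072, 2673 and 2154 for the lung minus liver, heart minus liver and heart minus lung effects, against 1219, 1635 and 1257. Leaving out 1 library gave 917 to 2087 genes in lung, 1793 to 4243 in heart, 807 to 1269, 711 to 1780 and 467 to 1671 for those 3 effects, and 3467 to 6242 for control heart minus control lung (5799 with all libraries). Of the 6 genes, 1 to 2 then passed in lung, 2 to 4 in heart and 0 to 1 for heart minus lung.

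Some changes that did not pass turned sign. With library sizes alone, Klf2 in liver was 0.06, the Klf4 lung minus liver effect −0.08 and Mef2c in control heart minus control liver 0.04. With upper-quartile factors the last 2 were −0.04 and 0.06, and Fli1 in heart was −0.02. Leaving out 1 library gave −0.14 to 0.28 for the Sox7 and −0.65 to 0.15 for the Sox18 heart minus lung effect, −0.29 to 0.10 for Sox17 in heart, −0.14 to 0.31 for Sox18 in control heart minus control lung and −0.37 to 0.22 for Klf2 in liver. It gave −0.45 to 0.52 and −0.79 to 0.16 for the Klf4 lung minus liver and heart minus liver effects, −0.19 to 0.09 for Mef2c in control heart minus control liver and −0.09 to 0.15 for Fli1 in heart. The cause was not tested for any of these.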
